A study of Mus musculus with 4 samples.

Results

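The genes described here are 43 genes of DNA replication and mitosis, chosen from a list of gene names and read on 4 expression arrays of mouse gastrocnemius, a fast muscle of the calf. Of the 43 genes, 42 had at least 1 probe set (a group of short probes for a transcript) that the array annotation gives to a single gene, which made 96 probe sets. Ccnb1, the gene of cyclin B1, had none. The muscles came from male mice of a C57BL/6N and FVBN cross. Control mice carried floxed alleles of FoxO1, FoxO3 and FoxO4 (FoxO1,3,4 f/f; the sample labels call them wild type). In knockout mice (FoxO1,3,4-/-) these alleles were deleted by Cre under the MLC1f promoter, which works in fast (type II) but not slow (type I) fibres, so that slow fibres and cells that are not muscle fibres kept FoxO. Mice of each genotype were fed ad libitum or starved for 24 h with water. The general methods give mice of 2 to 4 months, with no age for these arrays. For each of the 4 conditions RNA of 6 muscles from 3 mice was pooled and hybridized to 1 array, so no test, SD or p-value could be had, and the differences below were not checked in replicates.

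Adult muscle fibres have left the cell cycle for good, and their nuclei do not replicate DNA. The genes listed here serve cycling cells. In G1 the MCM helicase is loaded onto origins (licensing), in S phase polymerases copy the DNA, and in mitosis cyclin B with Cdk1 and the Aurora kinases drive the chromosomes onto the spindle until the anaphase-promoting complex frees the sister chromatids. E2F factors switch on the replication genes, while B-Myb and FoxM1 switch on the mitotic genes later. In resting cells the DREAM complex, which holds p130 (Rbl2), E2F4 and Lin54, represses both sets through E2F and CHR elements of their promoters. In muscle, cells able to divide are the satellite cells, which are the stem cells of the fibres, and cells of vessels, connective tissue, blood and immune origin.

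Replication promoters are known for E2F sites, and mitotic promoters for the CHR element and CCAAT boxes. RefSeq windows (GRCm38.p6) of the 250 bases before an annotated start matched 33 of the 43 genes, with 38 windows in all. A CCAAT box, the letters CCAAT on either strand, lay in 24 of the 38 windows (63.2%) and in 33.8% of all 32851 windows. An E2F element, searched on both strands as TTTGGCGC or TTTCGCGC or TTTCCCGC or TTTGCGC, lay in 6 of the 38 (15.8%) and in 2.83% of all windows. The CHR element, TTTGAA on either strand, lay in 9 of the 38 (23.7%) and in 16% of all. The FoxO element, TGTTTAC on either strand, was in 0 of the 38 and in 3.17% of all windows. These are matches of letters, and binding was not measured. The windows of 4 genes on which the results below turn are printed from 5′ to 3′ on the strand of the gene, with the matched letters in capitals. Aurka (chr2:172370571-172370820, minus strand) had CCAAT boxes that began 51 and 19 bases before the start. Mcm2 (chr6:88898781-88899030, minus strand) had a CCAAT box on the other strand 175 bases and a CHR element 70 bases before the start. Mcm6 (chr1:128359706-128359955, minus strand) had E2F elements at 110, 106 and 47 bases, those at 110 and 106 overlapping on opposite strands, and CCAAT boxes on the other strand at 57 and 14 bases. The window of Pttg1 (chr11:43425982-43426231, minus strand) held none of these letters.
Aurka: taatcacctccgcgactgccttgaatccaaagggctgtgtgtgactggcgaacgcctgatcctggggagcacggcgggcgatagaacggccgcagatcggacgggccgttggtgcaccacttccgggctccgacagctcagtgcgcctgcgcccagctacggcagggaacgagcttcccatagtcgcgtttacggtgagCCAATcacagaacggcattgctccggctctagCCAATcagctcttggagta
Mcm2: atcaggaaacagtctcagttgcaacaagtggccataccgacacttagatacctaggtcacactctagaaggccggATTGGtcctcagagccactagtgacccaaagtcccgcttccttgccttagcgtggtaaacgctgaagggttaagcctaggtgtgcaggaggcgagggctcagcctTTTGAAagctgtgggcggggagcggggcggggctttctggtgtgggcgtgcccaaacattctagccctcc
Mcm6: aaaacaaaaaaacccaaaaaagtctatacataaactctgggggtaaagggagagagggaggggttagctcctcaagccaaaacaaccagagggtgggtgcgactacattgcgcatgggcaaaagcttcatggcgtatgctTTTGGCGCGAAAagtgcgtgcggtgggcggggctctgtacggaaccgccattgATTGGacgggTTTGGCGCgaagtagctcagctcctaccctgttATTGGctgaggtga
Pttg1: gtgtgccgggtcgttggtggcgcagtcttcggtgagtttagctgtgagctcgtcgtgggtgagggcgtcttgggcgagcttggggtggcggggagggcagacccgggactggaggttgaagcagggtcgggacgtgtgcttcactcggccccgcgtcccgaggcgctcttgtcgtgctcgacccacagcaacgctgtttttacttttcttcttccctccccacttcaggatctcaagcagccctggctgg

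The labels were checked on the arrays. The fast fibre genes Tnnt3 and Mylpf had MAS 5.0 signals, a brightness in linear units, between 16265 and 18804.9 on all 4 arrays. The probe set of Foxo4 with the highest signal had a signal of 296.9 (fed) and 291.3 (starved) in controls and of 31.3 and 34.3 in knockouts, and that of Foxo1 at 303.8 and 554.4 against 185.2 and 165.5. Foxo3, at 250.1 and 477.8 against 297.3 and 460.9, did not set the genotypes apart, and whether its probes lie in the deleted part was not examined. The signals were brighter on the control arrays, with medians of 26.3 and 26.0 (fed and starved control) against 23.8 and 22.9 (fed and starved knockout), so that the median gene lay at a log2 ratio of -0.20 in fed and -0.16 in starved knockout over control muscle. A probe set passed the filter when it reached the median of its array on at least 1 array, and 12565 genes did so on some probe set. Each gene was read on the probe set that was brightest on average. A gene is called up at a ratio of at least 1.5 and down at the inverse, the threshold of the study, and "rose" and "fell" below mean only that this line was passed between 1 array and 1 array. In whole muscle, fewer cells of a type and less RNA per cell cannot be told apart.

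Most of the genes were dim. Of the 42 measured, 29 passed the filter, and 11 of them reached the 75th percentile of an array: Mcm2, Mcm4, Mcm7, Gmnn, Pcna, Rfc4, Fen1, Rrm1, Aurka, Pttg1 and Stmn1. Pcna, with signals from 1049.8 to 1270.2, and Pttg1 were the brightest. The 13 genes below the median on every array were mostly genes of mitosis, with the proliferation marker Mki67 between 2.0 and 16.3, the kinase Cdk1 between 2.4 and 15.3, and its cyclin Ccnb2 between 2.2 and 11.4. Birc5 (survivin) and Aurkb, partners in the chromosome passenger complex, ran from 1.5 to 14.9 and from 0.7 to 9.3. Bub1 and Bub1b, kinases of the spindle checkpoint, ran from 0.6 to 6.8 and from 0.6 to 11.6. The motors Kif11 and Kif20a and the microtubule-binding Prc1 and Nusap1 stayed at or under 21.9. Of the replication genes only Gins2, a subunit of the GINS complex of the helicase, and Tyms, thymidylate synthase, were as dim, with highest signals of 23.5 and 10.9. A further probe set that the annotation gives to Tyms and a pseudogene was left out. Among probe sets this dim the ratios spread widely, and they are not read as changes.

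**Figure D1:**
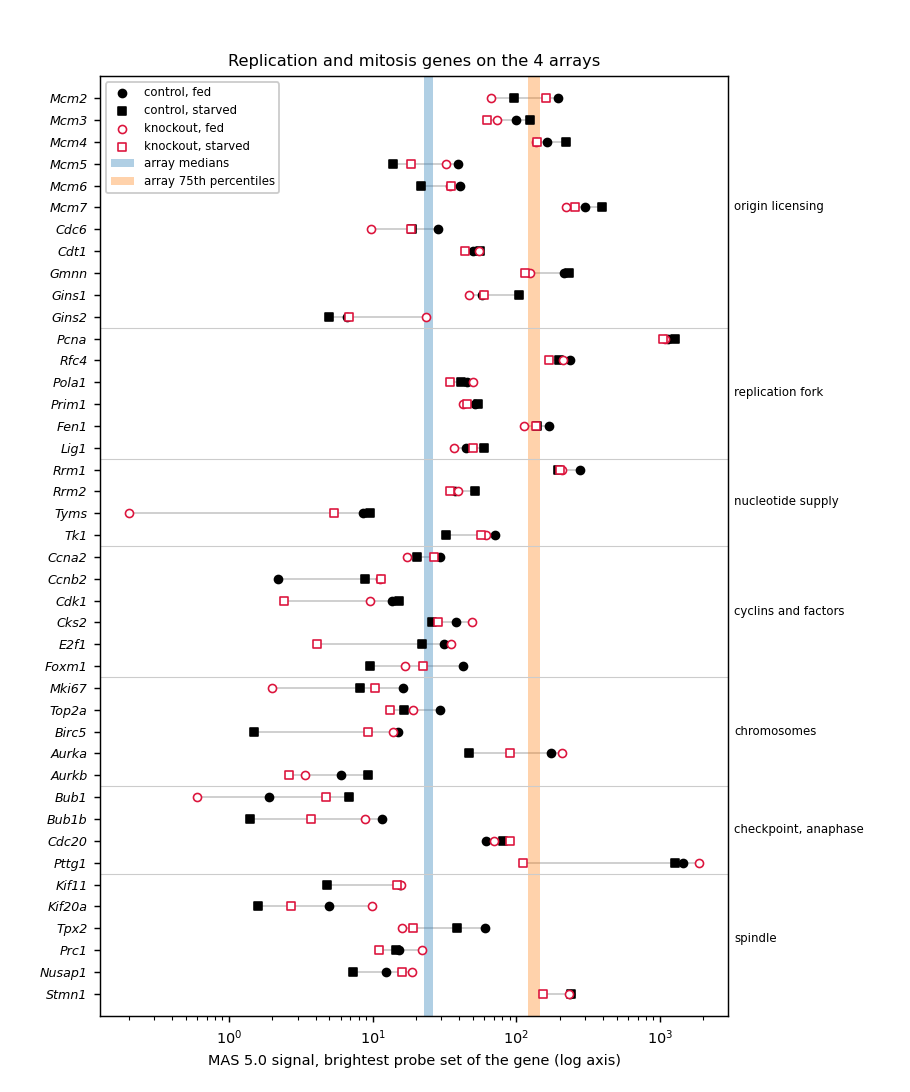
MAS 5.0 signal (log axis) of the 42 genes measured, each on the probe set brightest on average, grouped by role. Filled symbols are control and open symbols knockout arrays, circles fed and squares starved (1 pooled array each), and the shaded bands run over the medians (22.9 to 26.3) and the 75th percentiles (119.9 to 145.1) of the arrays. Pcna lies at 1049.8 or more on every array, and Pttg1 at 1266.2 or more on all but that of starved knockout muscle, where it is at 111.6.

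The genes did not move as 1 block on starvation. In control muscle 9 of the 29 genes past the filter fell, against 14.2% of all genes, and only Gins1 rose, against 9.23%. Of these 9, Foxm1, Top2a and Cdc6 reached an array median on the probe set read only on the fed control array. Their falls thus lean on the array that let these probe sets pass. The same filter was applied to all genes. In knockout muscle 6 fell, against 9.45%, and 3 rose, against 7.39%. The median log2 fold change of the 29 was -0.25 in control muscle, where that of all genes was -0.11, and -0.05 in knockout muscle, where that of all genes was -0.06. The calls in control muscle lay mostly among dim genes. Of the 18 genes that did not reach the 75th percentile, 7 fell, against 19.1% of all genes that dim, and of the 11 brighter genes 2 fell, against 11.0%. Gene by gene, the log2 fold change in control minus that in knockout muscle had a median of 0.03, and of -0.04 over all genes. With 1 array per condition the difference between the genotypes was not tested.

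**Figure D2:**
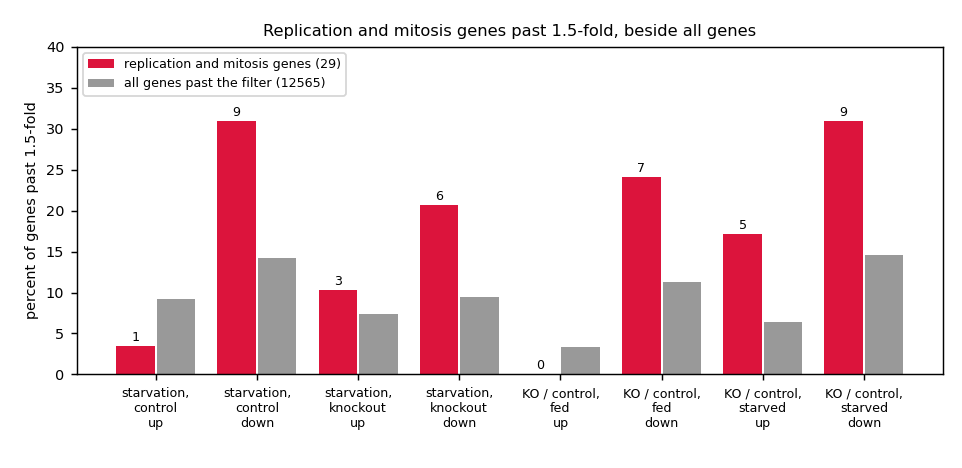
Percent of genes past 1.5-fold in each comparison and direction, for the 29 replication and mitosis genes past the filter (red, with the number of genes on each bar) and for all 12565 genes past the filter (grey). The highest red bars, 9 of 29 genes, are the falls on starvation in control muscle and the knockout below control in starved muscle. KO stands for knockout.

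Pttg1 had the largest difference of the set. It encodes securin, which holds separase inactive until anaphase. Its brightest probe set had a signal of 1440.9 in fed control, 1266.2 in starved control and 1881.5 in fed knockout muscle, and 111.6 in starved knockout muscle. The signal was therefore 16.9-fold lower in starved than in fed knockout muscle and 11.3-fold lower than in starved control muscle, while starvation in control muscle left it at 0.879 of the fed signal. A second probe set went the same way, with 485.2, 427.5, 664.7 and 50.5 on the fed control, starved control, fed knockout and starved knockout array. The third was dim, with 32.5, 34.6, 23.7 and 15.5 in that order, and was also lowest on the starved knockout array. On the brighter probe sets the starved knockout array alone was low, and the other 3 arrays stayed at or above 1266.2 on the one and 427.5 on the other.
Among the 6357 genes that reached the 75th percentile on all 3 other arrays, Pttg1 lay farthest below them on the starved knockout array, at a log2 distance of -3.50 to the lowest of the 3. Next were the immediate early gene Egr1 at -1.26 and Kcnc4 at -1.07, a set of comparisons made after the values of Pttg1 were seen. The protein-coding genes next to Pttg1 in the RefSeq order did not share the fall at this size. On the starved knockout array Slu7 was at 304.9 against 353.6 in fed knockout muscle, and Ttc1 at 812.7 against 694.1. Pwwp2a was at 90.6 against 93.9. Dimmer neighbours moved more, with C1qtnf2 at 46.4 against 77.9 and Ccnjl, below the medians of these arrays, at 9.6 against 21.8.

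**Figure D3:**
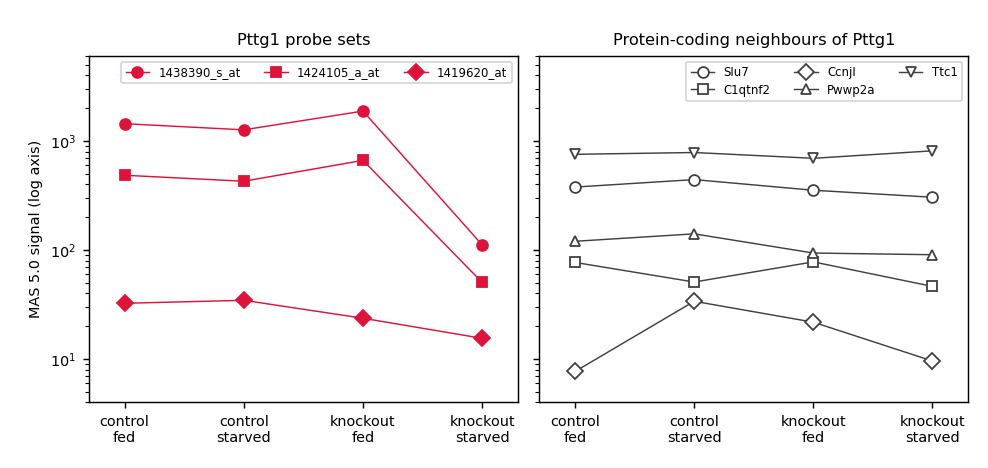
MAS 5.0 signal (log axis) on the 4 arrays for the 3 probe sets of Pttg1 (left) and for the 5 genes past the filter among its nearest protein-coding neighbours (right), 1 pooled array per condition. The brighter Pttg1 probe sets fall from 1881.5 to 111.6 and from 664.7 to 50.5 between fed and starved knockout muscle, while Ttc1, Slu7 and Pwwp2a stay within 1.5-fold.

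Aurka fell on starvation in both genotypes. It encodes Aurora A, the kinase of centrosomes and spindle poles. The signal was 174.4 in fed and 47.0 in starved control muscle, a 3.71-fold fall, and 207.1 in fed and 90.8 in starved knockout muscle, a 2.28-fold fall. Both starved arrays lay below both fed arrays, and the starved knockout array was 1.93-fold above the starved control array. The other Aurka probe set was near the floor, at 2.0, 0.9, 1.3 and 8.4, and it moved the other way in knockout muscle. Mcm5, a helicase subunit, was the other gene that fell in both genotypes, from 39.5 to 13.8 in control and from 32.4 to 18.5 in knockout muscle, on a dim probe set. A still dimmer one, below the medians, went up in both, from 6.4 to 14.3 and from 1.9 to 8.4. These 2 of 29 stand beside 3.91% of all genes down in both genotypes, while 0 of 29 were up in both, against 2.63%. Tpx2, which activates Aurora A on the spindle, fell in control muscle from 60.9 to 38.9 on its brightest probe set. There it was low on both knockout arrays, at 16.1 fed and 19.0 starved. On another probe set past the filter Tpx2 fell in both genotypes, from 36.2 to 14.6 in control and from 17.4 to 4.3 in knockout muscle. A further one went from 33.1 to 27.0 in control and from 23.8 to 16.9 in knockout muscle, both under the line.

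The remaining falls in control muscle were Tk1, Foxm1, Mcm2, Mcm6, Top2a and Cdc6. Tk1, the thymidine kinase of S phase, went from 71.2 to 32.3 in control muscle, a 2.20-fold fall, and from 61.1 to 57.0 in knockout muscle. The starved control array was the only low one. Foxm1, the factor that drives mitotic genes, dropped in control muscle from 42.4 to 9.5, while knockout muscle had 16.7 fed and 22.5 starved. Its other 3 probe sets were below the medians, between 0.5 and 20.6. One of them went up in control muscle, from 12.4 to 20.6, and the others went down, from 9.5 to 5.7 and from 11.4 to 0.6. Top2a, the topoisomerase that untangles sister chromatids, went from 29.4 to 16.6 and from 19.0 to 13.1. A dimmer Top2a probe set past the filter rose in control muscle, from 14.7 to 26.8. Gins1, the GINS subunit, was the gene that rose, from 57.4 to 104.8 in control muscle, and it was at 46.5 and 59.1 in knockout muscle.

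Of the 6 MCM subunits, which form 1 ring around DNA, some were lower and others higher on the starved control than on the fed control array. Mcm4 had 162.3 (fed) and 220.7 (starved) in control and 138.0 (fed) and 139.0 (starved) in knockout muscle, and its other probe set went the same way, with 145.3, 165.6, 116.5 and 117.0. Mcm7 was at 298.5, 393.6, 222.0 and 257.7, and Mcm3 at 99.0, 124.5, 73.2 and 62.5 in the same order. On these probe sets the 3 subunits had ratios under 1.5 on starvation in both genotypes and were highest on the starved control array. A dim Mcm3 probe set, at 20.4, 31.7, 3.9 and 2.0, rose on starvation in control muscle but fell in the knockout. One of the 3 other Mcm7 probe sets, at 87.8, 84.7, 36.0 and 59.6, rose in knockout muscle. Mcm6 was lowest on the starved control array, at 21.6, against 40.8 in fed control muscle and 34.5 and 35.0 in knockout muscle. Mcm2 had 193.9 in fed and 96.8 in starved control muscle, but 66.5 in fed and 159.8 in starved knockout muscle, so that it fell 2.00-fold in the one and rose 2.40-fold in the other. Its second probe set, at 63.0, 32.2, 53.3 and 38.3, also fell in control muscle and did not rise in knockout muscle. The brighter one has a name of the kind, ending in s_at, that marks probes shared by several transcripts. The brightest probe sets of Pttg1, Stmn1, Mcm7 and Mcm3 have names of this kind too. Those of Mcm5, Fen1 and Rrm2 end in x_at, and an alternative given below leaves out both kinds.
Cdc6, which loads the MCM ring, was dim and took the same course as the bright Mcm2 probe set, at 28.5, 18.8, 9.7 and 18.5. Cdt1, its partner, was flat, between 43.6 and 55.4. Gmnn encodes geminin, the inhibitor of Cdt1, and did not respond past the line to starvation, at 215.0 and 232.4 in fed and starved control and 125.4 and 114.7 in fed and starved knockout muscle.

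The genes of the replication fork stayed within 1.5-fold in the 4 comparisons on their brightest probe sets. Pcna, the sliding clamp of the polymerases, had signals of 1131.6 (fed) and 1270.2 (starved) in control and of 1080.9 (fed) and 1049.8 (starved) in knockout muscle, a range within which no pair of arrays differed by 1.5-fold. Rfc4, of the complex that loads the clamp, ran from 167.8 to 234.9. The primase gene Prim1 lay between 42.5 and 54.4 on its brighter probe set, although the dimmer one went from 49.2 to 18.3 in control muscle. Pola1, the polymerase that extends the primers, lay between 34.3 and 50.2, and Lig1, the ligase that seals the fragments, between 36.9 and 59.7. Fen1, the flap nuclease, was at 169.4, 140.3, 113.7 and 136.9 on the fed control, starved control, fed knockout and starved knockout array. Its dimmer probe set fell in control muscle, from 93.2 to 61.1, and had 86.0 and 65.6 in knockout muscle. On the brightest probe sets none of these 6 genes was called in any of the 4 comparisons. Of the ribonucleotide reductase genes, which supply deoxynucleotides, Rrm1 was highest in fed control muscle, at 277.2 against 194.1, 208.9 and 201.4, and Rrm2 lay between 34.4 and 51.5. Neither was called on these probe sets. On their second probe sets past the filter, Rrm1 fell in control muscle from 88.8 to 57.2 and Rrm2 rose from 22.2 to 39.7.

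**Figure D4:**
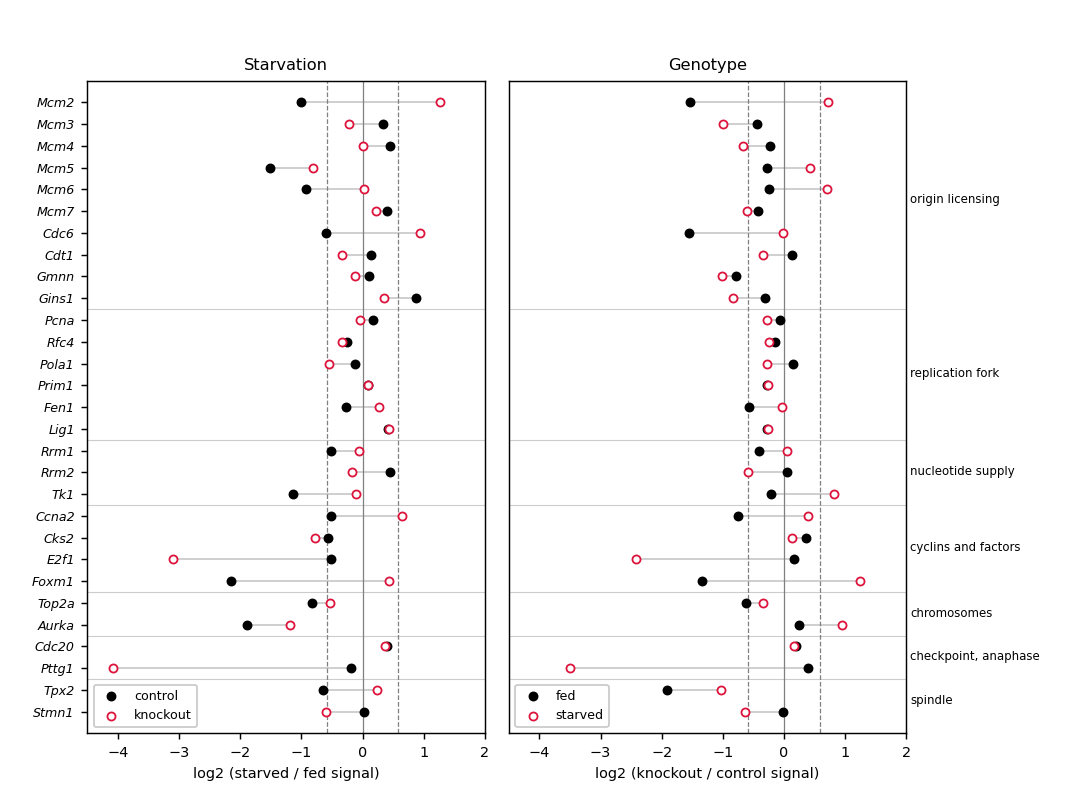
Log2 ratios of the 29 genes past the filter on their representing probe sets. Left, starved over fed in control (filled) and knockout muscle (open); right, knockout over control in fed (filled) and starved muscle (open). Dashed lines mark 1.5-fold. Pttg1 reaches -4.08 on the left and -3.50 on the right, and the fork genes from Pcna to Lig1 stay between the dashed lines.

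On starvation in knockout muscle, Pttg1, Aurka, Mcm5, Cks2, E2f1 and Stmn1 fell, Stmn1 no longer so once the arrays were scaled to the same median. Cks2, a small subunit of cyclin-dependent kinases, went from 49.1 to 28.5 in knockout and from 38.3 to 25.9 in control muscle, and on a second probe set from 30.0 to 23.4 and from 37.3 to 24.6. Stmn1, which destabilizes microtubules, was at 235.0, 239.6 and 232.9 on the fed control, starved control and fed knockout array and at 153.1 on the starved knockout array. Its dim probe set, at 19.0, 16.4, 20.2 and 3.4, was likewise lowest there. E2f1 was at 31.4, 22.0, 35.2 and 4.1 in that order, although a dimmer probe set had its highest signal, 18.1, on the starved knockout array. The 3 genes that rose were Mcm2, Cdc6 and the cyclin gene Ccna2, which had 17.3 in fed and 26.9 in starved knockout muscle against 29.2 and 20.5 in control muscle. The other Ccna2 probe set past the filter went the opposite way in knockout muscle, from 32.7 to 10.5, and had 12.6 and 9.1 in control muscle. Cdc20, which turns on the anaphase-promoting complex, was higher on both starved arrays than on its fed array, at 61.4 and 81.0 in control and 70.0 and 90.2 in knockout muscle, differences below the 1.5-fold line. Its other probe set past the filter had 31.3 and 36.3 in control but 41.8 fed and 29.4 starved in knockout muscle.
In 11 of the 29 genes the starved knockout array was the lowest of the 4, against 39.9% of all genes.

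Between the genotypes, Gmnn and Tpx2 were lower in knockout than in control muscle in both states. Gmnn was 1.71-fold lower fed and 2.03-fold lower starved, and both knockout arrays lay below both control arrays. After quantile normalization the log2 ratio of Gmnn went from -0.778 to -0.576 fed, just under the line. In starved muscle it went from -1.02 to -0.82, still past the line. Tpx2 was 3.78-fold lower fed and 2.05-fold lower starved on its brightest probe set. On its other 2 probe sets past the filter Tpx2 was lower by 2.08-fold fed and 3.40-fold starved, and by 1.39-fold fed and 1.60-fold starved. The remaining Tpx2 probe set, below the median of every array, was not lower in the knockout, with 13.2 and 14.9 in control and 15.9 and 20 in knockout muscle. These 2 of 29 stand beside 3.35% of all genes. In fed muscle 7 of the 29 were lower in the knockout, against 11.3% of all genes, and 0 were higher, against 3.38%. Besides Gmnn and Tpx2 these were Mcm2, Cdc6, Ccna2, Foxm1 and Top2a. The probe sets read for Cdc6, Foxm1 and Top2a passed the filter only through the fed control array, the higher one here. The other Ccna2 and Top2a probe sets past the filter were higher in fed knockout muscle, at 32.7 against 12.6 and at 19.9 against 14.7. In starved muscle 9 were lower, against 14.6%, and 5 were higher, against 6.39%. The 9 were Pttg1, E2f1, Tpx2, Gmnn, Mcm3, Gins1, Mcm4, Stmn1 and Mcm7, and of the 11 genes that reached the 75th percentile they include 5, against 11.0% of all genes that bright. The 5 that were higher were Foxm1, Aurka, Tk1, Mcm2 and Mcm6, and the starved control array that this comparison uses is also the one on which their falls in control muscle rest.
The median log2 ratio, knockout over control, of the 29 genes was -0.27 fed and -0.26 starved, beside the -0.20 and -0.16 of all genes. After scaling that gave all arrays 1 median, 6 were lower and 0 higher in fed knockout muscle, against 7.19% and 4.78% of all genes, and Top2a was no longer called. In starved muscle 6 were lower and 6 higher, against 8.32% and 10.1%. Mcm4, Mcm7 and Stmn1 were then no longer called in starved muscle, and Mcm5 was called higher.

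Different probe sets of a gene did not always move together. Of 15 genes with more than 1 probe set past the filter, 11 had all of these on the same side of 0 on starvation in control muscle, against 60.3% of all such genes, and 9 in knockout muscle, against 51.3%. For knockout over control the number was 10 in fed muscle, against 59.6%, and 11 in starved muscle, against 60.5%.

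**Figure D5:**
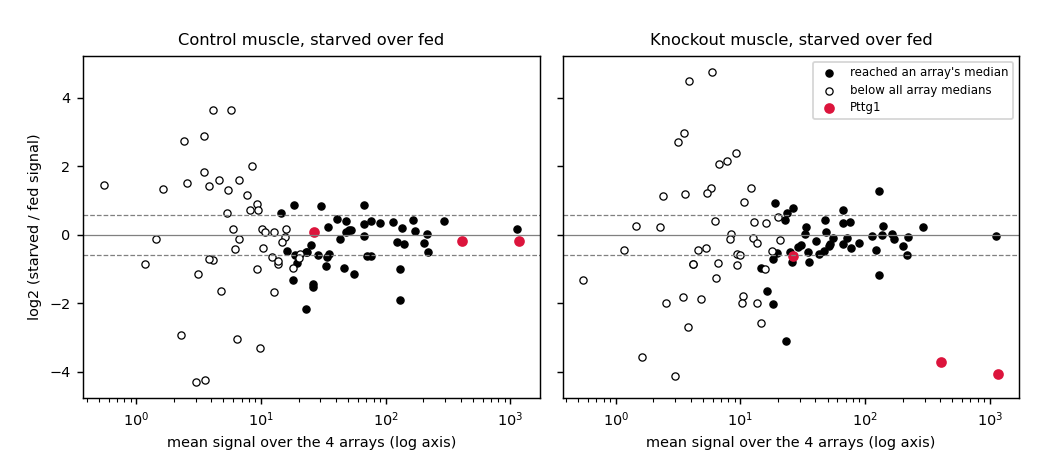
Log2 starved over fed signal of each of the 96 probe sets of the replication and mitosis genes, against its mean signal over the 4 arrays (log axis), in control (left) and knockout muscle (right). Open points are the 47 probe sets below the median on every array, filled points the 49 that reached it, and red points Pttg1. The spread is widest at low signal, and the brighter Pttg1 probe sets, at -3.72 and -4.08 in knockout muscle, lie apart from the other bright ones.

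Other genes of the cell cycle were read from lists. Of 36 further replication genes past the filter, 0 rose and 10 fell on starvation in control muscle, and 2 rose and 6 fell in knockout muscle, beside the 9.23% up and 14.2% down of all genes in control and 7.39% and 9.45% in knockout muscle. Their median log2 fold changes were -0.07 and -0.14, where those of all genes were -0.11 and -0.06. Dtymk, a kinase of the thymidine nucleotide pathway, went from 303.1 to 199.9 in control and from 213.6 to 190.0 in knockout muscle. Tipin, a protein of the replication checkpoint, went from 382.5 to 253.4 in control muscle and had 280.5 and 284.1 in knockout muscle. Rfc1 and Orc2 were lower in starved knockout than in starved control muscle, at 93.7 against 165.5 and at 98.4 against 164.7. Of 27 further mitosis genes, 2 rose and 3 fell in control and 5 rose and 4 fell in knockout muscle, beside the same shares of all genes, with medians of -0.15 and 0.06. Hmgb2, a chromatin protein of dividing cells, rose in both genotypes, from 166.9 to 445.6 (control) and from 106.8 to 166.6 (knockout). Ube2t, an E2 enzyme of DNA crosslink repair, was lower on both knockout arrays, at 94.0 and 95.8 against 146.8 and 146.0.
Of 23 genes that govern G1, 3 rose and 3 fell in control and 1 rose and 2 fell in knockout muscle, beside 9.23% up and 14.2% down of all genes in control and 7.39% and 9.45% in knockout muscle. The 3 that rose in control muscle were Rbl2, Lin54 and Myc, of which Rbl2 and Lin54 encode parts of the DREAM complex. Rbl2, which encodes p130, went from 411.3 to 769.3 in control and from 289.1 to 325.4 in knockout muscle, and Lin54, its DNA-binding subunit, from 125.8 to 243.9 and from 115.3 to 124.7. Myc, a growth factor-responsive transcription factor, went from 89.2 to 193.9 and from 78.8 to 81.0. In all 3 the starved control array was the highest. Rb1, the retinoblastoma gene, was at 519.9 in starved control and 295.4 in starved knockout muscle, with 435.5 and 387.5 when fed. Ccnd1, which encodes cyclin D1, was highest in fed control muscle, at 317.6, against 140.8 in starved control and 162.9 and 130.5 in fed and starved knockout muscle.

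Markers of other cell types differed between the arrays, and their part in the values above was not tested. The summed signal of the satellite cell markers, 10 of 10 past the filter, ran from 1471.2 to 1620.7, but single markers moved. On starvation 2 fell and 0 rose in control muscle, against 14.2% and 9.23% of all genes. In knockout muscle 1 fell and 1 rose, against 9.45% and 7.39%. Starved knockout muscle had 2 higher and 0 lower than starved control muscle, against 6.39% and 14.6%. The 8 of 8 endothelial markers summed to 3358.0 and 3202.4 in fed and starved control and to 2637.9 and 2643.5 in fed and starved knockout muscle. The sum of 10 of 10 macrophage markers was 7407.7 and 6836.8 in fed and starved control and 5738.6 and 5089.6 in fed and starved knockout muscle. Both sums were lower on both knockout arrays, which were also dimmer as a whole. Of the endothelial markers 1 was called lower in fed and 0 in starved knockout muscle. For the macrophage markers these counts were 0 and 2, and the shares of all genes were 11.3% fed and 14.6% starved. The 8 fibroblast markers summed to 32396 and 28575.8 on the fed control and knockout arrays and to 23721.6 and 21932.5 on the starved ones. Of these markers 4 fell in each genotype, against 14.2% of all genes in control and 9.45% in knockout muscle. Col1a2 went from 6672.5 to 4458.7 in control and from 6162.4 to 3951.0 in knockout muscle. The brightest, Dcn, was nearly flat, between 12263.5 and 13609.6. The lymphocyte markers, of which 2 of 8 passed the filter, were led by Ighm, at 2422.5 on the fed control and 588.9 to 1077.2 on the other arrays. The genes of neutrophils (4 of 8) and erythroid cells (3 of 8) that passed the filter had summed signals from 141.4 to 399.6 and from 96.6 to 190.9, highest on the starved control array. Both lists were thus read in part, and these sums do not measure how much blood the muscles held.
Hair genes stood out, with summed signals of 1504.5 on the fed control and 2552.1 on the starved knockout array against 193.4 and 228.1 on the starved control and fed knockout array (16 of 19 genes). Mcm2, Mcm6, Ccna2 and Foxm1, 4 of 29, had both of these bright arrays above both of the others, against 10.9% of all genes. This rests on their brightest probe sets. On another probe set of Mcm2, Ccna2 and Mcm6, that of Mcm6 below the medians, the starved knockout array was below the fed knockout array, at 38.3 against 53.3, at 10.5 against 32.7 and at 15.7 against 21.7. On Foxm1 probe sets below the medians the starved knockout array was also lower, at 1.9 against 2.8 and at 0.5 against 0.9. On the remaining one it was higher, at 1.6 against 0.7. Epidermis genes (9 of 10) summed to 399.4 on the fed control array and to between 848.4 and 1305.3 on the others.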

How the data were processed

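RNA pools of 4 conditions were measured on whole-genome Affymetrix mouse arrays. The authors deposited 1 linear intensity per probe set and array, made with MAS 5.0 (Affymetrix Expression Console is named in the submitters' processing notes). No detection calls or scaling target were found in the labels or methods, so dim signals could not be told from background. Signals were used as deposited.

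Ratios were computed in Python 3.11.15 (pandas 2.3.3, numpy 2.4.6), with figures by matplotlib 3.10.9. A signal of 0 was set to 0.1. Of 45037 probe sets other than controls, 34945 have 1 gene in the platform annotation and 932 several (none named from these); 34741 were given the current symbol of their gene identifier, and RefSeq is of GRCm38.p6. Every replication and mitosis gene was named. Other cell cycle genes were named if past 1.5-fold, moving 1 way on all probe sets and at the 75th percentile of either array, at most 4 per list and comparison. Of the markers, the 2 brightest were named for fast fibres and fibroblasts and the brightest for lymphocytes. The other marker lists were given as sums, with counts of calls for satellite cell, endothelial and macrophage markers. Neighbours and genes like Pttg1 were chosen after its values were seen. The genes and lists were chosen with earlier results of these data known. Calling was checked on simulated data with known changes. Alternatives covered scaling, filter, offset, probe set choice and threshold.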

Additional observations from a re-analysis of the deposited data

Results flagged for a closer look

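Mcm2 and Cdc6 were called in opposite directions on starvation in the 2 genotypes. The control minus knockout difference of the log2 fold changes was -2.27 for Mcm2 and -1.53 for Cdc6, each falling in control and rising in knockout muscle. The fall of Cdc6 in control muscle, at a log2 change of -0.60, was no longer called after the arrays were scaled to the same median, which ends its opposite calls. Each rests on 1 array per condition and was not tested. For Mcm2 the second probe set fell in control muscle and had a log2 fold change of -0.48 in knockout muscle, so that the rise was seen on 1 of its 2 probe sets. Cdc6 has 1 probe set, which lay below the array medians on 3 of the 4 arrays.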

How the results depend on the processing

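With 1 array per condition the main limit is that no difference has a replicate check, no replicate could be left out, and dim signals carry no error. No paired analysis was possible because each group has 1 array. Setting the arrays to the same median, the same trimmed mean or the same quantiles moved the median log2 ratio of the genes, knockout over control, to -0.13, -0.086 and -0.087 fed and to -0.081, -0.0797 and -0.059 starved. The median of all genes moved as well, to -0.051, -0.0062 and -0.0021 fed and to 0.022, 0.023 and 0.019 starved. That of the replication and mitosis genes thus stayed below it under each scaling. Quantile normalization called 1 gene higher in fed knockout muscle. Apart from the same median, the shares of all genes called were not counted under these alternatives. The counts given here therefore stand without a share and are not read as results about the genes. Without the filter, over 42 genes, 4 rose and 15 fell in control muscle, 6 rose and 12 fell in knockout muscle, 4 were higher and 11 lower in fed knockout muscle, and 10 were higher in starved knockout muscle. With the filter at the 75th percentile, over 11 genes, 0 rose and 2 fell in control muscle, 1 rose and 3 fell in knockout muscle, 2 were lower in fed knockout muscle, and 2 were higher and 5 lower in starved knockout muscle. At a 2-fold line, 0 rose and 5 fell in control muscle, 1 rose and 3 fell in knockout muscle, 4 were lower in fed knockout muscle, and 1 was higher and 4 lower in starved knockout muscle. With an offset of 16, 1 rose and 3 fell in knockout muscle. With the mean over the probe sets of a gene, 2 rose in control muscle with a median of -0.092, 4 were higher in fed and 3 in starved knockout muscle, and the log2 change of Aurka in knockout muscle reversed to 0.75, on account of its probe set near the floor. The median difference of the log2 changes, control minus knockout, was 0.18 with the filter at the 75th percentile and 0.17 with the mean over probe sets. Without probe sets whose names end in s_at or x_at, an alternative chosen after the data were seen, 3 of 27 genes rose in control muscle and the log2 change of Mcm2 in knockout muscle reversed to -0.48. Of the rest, 88 summary values moved less than set margins (0.1 for a median, 1.5 times for a count), although the median on starvation in knockout muscle turned from -0.05 to 0.0029, 0.0014 and 0.0035 under the 3 scalings and the median difference from 0.03 to -0.0052 with the same median. Of single genes, only Pttg1, Aurka, Gmnn, Tpx2, Mcm2 and Tk1 were followed through these alternatives, and the calls of the other genes were not. For these genes 216 values kept their side of the line, many of them under it from the start, 13 fell short of it and 1 passed it. With the mean over probe sets, values under the line turned sign for Aurka, knockout over control fed, to -0.19, and for Tpx2, starvation in knockout muscle, to -0.49.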

Other observations

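Counted after the values of Pttg1 were seen, differences like it, with 1 array at least 4-fold below all 3 others in a gene bright on those 3, were found for 1 gene of 6357 on the starved knockout array (Pttg1), for 1 of 6368 on the fed control array (the epidermal gene Lor, at 12.5) and for 0 of 6356 on the fed knockout array. On the starved control array 4 of 6433 genes lay so low, which were Aqp4, Sema6c, Ky and Tfrc. On the other side, 15 genes were at least 4-fold above all others on the starved knockout array, among them the hair shaft gene Krtap6-5, and 8 on the starved control array, led by Depp1 and Gadd45a.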
